A study of Mus musculus with 8 samples.

Results

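The miR-193 and miR-365 microRNAs (miRNAs) of the mouse were examined in 8 small RNA libraries from bone and from a bone-forming cell line. Chosen by name, the members were mmu-miR-193b-3p, mmu-miR-193a-3p and mmu-miR-365-3p (the mouse prefix is left out below), 3 of the 1281 mature miRNAs in the deposited tables. They occupy 4 entries of the tables, since miR-365-3p is listed once for each of its 2 precursor hairpins, and these were summed. All 3 were proposed with their levels in these libraries known, so their levels are given as a description, with no test. Of the 8 libraries, 3 were made from parietal and frontal bones (calvaria, the roof of the skull) of female C57BL/6 Prrx1-Cre+ mice aged 2 to 3 days. Prrx1-Cre drives the recombinase in limb and craniofacial mesenchyme, and no floxed allele is named in the labels. These bones were digested briefly with collagenase and trypsin before freezing, a step not named for the cultured cells. The other 5 libraries were made from MC3T3-E1 sc4 cells, a pre-osteoblast line that is 1 subclone of a mouse calvarial line, at passage 10 to 15. They stand for days 0, 6, 10, 17 and 24 of culture, with equal amounts of RNA from 3 samples pooled into 1 library per day. Day 0 cells are called undifferentiated. Osteogenic medium, given for days 6 to 24 and not for day 0, held 50 µg/ml ascorbic acid and 4 mM β-glycerol phosphate. The deposited column names of days 6 to 24 also carry the mark veh. That of day 0 lacks it, and no source used here explains it. Ratios to day 0 and the slope on day therefore hold time, medium and whatever this mark stands for together. Whether the 3 calvaria libraries came from separate animals is not in the labels, so their spread, and the p-values that rest on it, may be technical.

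A miRNA is cut from a hairpin that yields a pair of short strands, named 5p and 3p after the arm they come from. Usually one arm is kept in Argonaute, and its bases 2 to 8, the seed, select the messenger RNAs it represses. In mouse, the genes are arranged as 2 clusters, each with a miR-193 hairpin beside a miR-365 hairpin. The miR-193b and miR-365 cluster is best known from brown fat: blocking both in cultured mouse preadipocytes impaired brown adipocyte differentiation, whereas mice lacking the cluster were later reported to form brown fat. In the skeleton, miR-365 was described in chicken growth plate chondrocytes as a miRNA that responds to mechanical load and represses Hdac4, a brake on chondrocyte hypertrophy.

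The mature 3p sequences are shown because they decide which reads can be told apart (RefSeq, build GRCm38.p6, 5′ to 3′, with the seed in capitals).
miR-193b-3p: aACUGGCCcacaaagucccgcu
miR-193a-3p: aACUGGCCuacaaagucccagu
miR-365-3p: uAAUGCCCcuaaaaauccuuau
Both miR-193 arms share the seed ACUGGCC, which no other mature miRNA in the RefSeq table has. They differ at 3 of 22 positions, counted from 1 at the 5′ end and written as the miR-193a-3p base, the position and the miR-193b-3p base: U9C, A20G and G21C. The miR-365-3p seed, AAUGCCC, was found in no other mature miRNA of that table.

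The other arms of the same hairpins, all 5p, are shown because they tell the 2 miR-365 hairpins apart.
miR-193b-5p: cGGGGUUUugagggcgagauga
miR-193a-5p: uGGGUCUUugcgggcaagauga
miR-365-1-5p: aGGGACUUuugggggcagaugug
miR-365-2-5p: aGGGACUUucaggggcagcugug
Between miR-365-1-5p and miR-365-2-5p, 3 of 23 positions differ (U10C, G11A and A19C, the miR-365-1-5p base first), and their seeds are the same. Between miR-193a-5p and miR-193b-5p, 5 of 22 positions differ (U1C, U5G, C6U, C11A and A16G, the miR-193a-5p base first), of which U5G and C6U fall within the seed. All 7 arms were matched to RefSeq by name.

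On chromosome 16 (GRCm38.p6, plus strand), Mir193b lies at chr16:13449523-13449601 and Mir365-1 at chr16:13453840-13453926, with 4238 bases between them. Both lie in an intron of Gm15738, an antisense gene annotated on the minus strand. On chromosome 11 (plus strand), Mir193a lies at chr11:79711969-79712034 and Mir365-2 at chr11:79726400-79726511, with 14365 bases between them and no other annotated gene overlapping either hairpin. The 2 miR-365 hairpins are shown with the mature 3p arm in capitals, because that arm is the same in both.
Mir365-1: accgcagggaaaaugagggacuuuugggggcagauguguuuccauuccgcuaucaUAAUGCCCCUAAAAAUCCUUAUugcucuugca
Mir365-2: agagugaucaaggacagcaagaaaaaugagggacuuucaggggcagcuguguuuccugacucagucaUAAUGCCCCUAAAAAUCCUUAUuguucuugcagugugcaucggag
They share an unbroken run of 27 bases that holds the whole 3p arm. A miR-365-3p read that lies within this run therefore cannot be assigned to a chromosome.

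The deposited values were largely of this kind. The 2 miR-365-3p entries held equal values in 7 of 8 libraries, and at day 6 they held 984.5 and 986.5 counts. Entries ended in 0.5 in 4 of the 8 libraries, as they do when a read is divided between 2 places. The authors' rule for such reads is not given in sources used here. Entering every read in full at both precursors would give whole numbers, so at least some reads were divided in those 4 libraries. Any read entered in full at both would be counted 2 times in the summed level of miR-365-3p. That level would then be too high against the other miRNAs. Its ratios between libraries would be unchanged only if the same part of the reads were so entered in each. miR-193a-3p and miR-193b-3p each held a fractional count in 2 libraries, days 6 and 17, so some of their reads were divided too. A whole count does not show that none were.

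Library totals were 1183011 to 2023036 counts in the calvaria and 2742368 to 4031962 counts in the MC3T3 cells. The day 0 library stood apart: miR-21a-5p alone took 45.6% of its counts, against 11.2% to 20.1% on the later days and 5.41% to 9.74% in the calvaria. Its TMM factor, the edgeR scaling that corrects for such dominant miRNAs, was 0.716, against 0.914 to 1.16 for the later days and 1.07 to 1.12 for the calvaria. Levels below are read counts per 1000000 counts of the library total (RPM), which these factors do not enter. The exact 95% Poisson intervals given with them cover counting error only, since no molecular identifiers are named for these reads and several may copy 1 molecule.

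Summed over both entries, miR-365-3p was the most abundant of the 3 members in every library. With 1 of its entries alone, miR-193b-3p was above it in calvaria libraries 2 and 3 (123 against 122.5 counts and 55 against 46.5) and at day 17 (1725.5 against 1612), so the order of the 2 depends on how reads were divided. The sum was at 161, 121 and 69.2 RPM in the 3 calvaria libraries, against 343, 625, 759, 818 and 780 RPM at days 0, 6, 10, 17 and 24 of the MC3T3 cells. All 5 MC3T3 values lay above all 3 calvaria values. The calvaria libraries differed among themselves by more than counting error, with intervals of 139 to 185, 106 to 137 and 55.9 to 84.8 RPM. From day 10 on, neighbouring values in the order could not be told apart by their intervals, which were 728 to 790 RPM at day 10, 748 to 814 RPM at day 24 and 790 to 847 RPM at day 17.

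miR-193b-3p had 52.4, 60.8 and 40.9 RPM in the calvaria, against 152, 295, 335, 438 and 356 RPM at days 0, 6, 10, 17 and 24. As for miR-365-3p, the 2 materials did not overlap. The lowest MC3T3 library was day 0, with an interval of 139.8 to 164 RPM, and the highest calvaria library had an interval of 50.5 to 72.5 RPM. Neighbouring calvaria libraries had overlapping intervals, as did days 10 and 24, while day 17 stood above every other library with an interval of 418 to 459 RPM.

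miR-193a-3p was the scarcest of the members. It had 10.99, 9.89 and 8.93 RPM in the calvaria, from 13, 20 and 12 counts, against 5.70, 13.5, 11.3, 28.6 and 18.2 RPM at days 0, 6, 10, 17 and 24. Here the materials overlapped: day 0 was below all 3 calvaria libraries, and the other 4 days were above them. The 3 calvaria intervals, 5.85 to 18.8, 6.04 to 15.3 and 4.62 to 15.6 RPM, also took in the values at days 6 and 10. At day 17 alone did the interval, 23.4 to 34.2 RPM, lie above all of those of the calvaria.

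**Figure D1:**
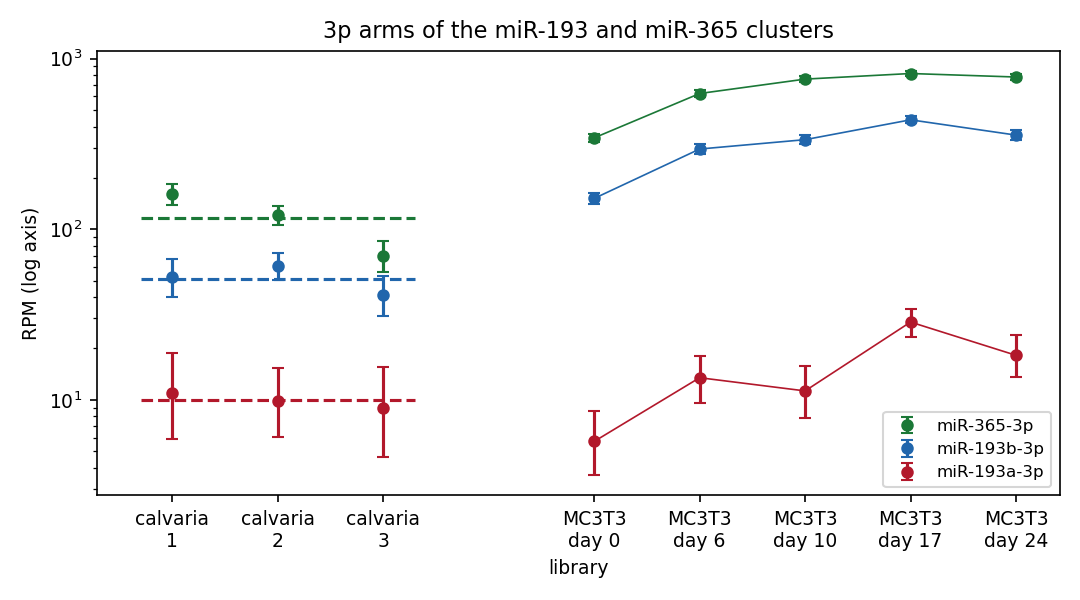
Level of each 3p arm (RPM, log axis) in the 3 calvaria libraries and in the MC3T3 library of each day; points are libraries, bars exact 95% Poisson intervals, and the dashed line the calvaria mean. All MC3T3 points lie above all calvaria points for miR-193b-3p and miR-365-3p, whereas for miR-193a-3p day 0 (5.70 RPM) lies below the calvaria mean of 9.94 RPM.

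The first comparison set newborn skull bone against the cultured line. miR-193b-3p averaged 51.4 ± 9.97 RPM in calvaria (SD, n = 3) and 315 ± 105 RPM in MC3T3 cells (SD over days, n = 5), a ratio of calvaria to MC3T3 of 0.163. For miR-365-3p the means were 117 ± 45.8 RPM in calvaria and 665 ± 194 RPM in MC3T3 cells (n = 3 and 5), a ratio of 0.176. For miR-193a-3p they were 9.94 ± 1.03 RPM in calvaria and 15.4 ± 8.60 RPM in MC3T3 cells (n = 3 and 5), a ratio of 0.643. Thus miR-193b-3p and miR-365-3p differed by a similar ratio, and miR-193a-3p by less than the spread between MC3T3 days. The MC3T3 SD holds the course over days as well as noise.

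The same comparison was fitted over all miRNAs with edgeR's quasi-likelihood model, TMM factors and Benjamini-Hochberg adjustment. Of the 471 miRNAs tested, 302 (64.1%) had an adjusted p under 0.05, 167 (35.5%) higher and 135 (28.7%) lower in calvaria. The fitted log2 change, calvaria over MC3T3, was -2.78 ± 0.32 (SE) for miR-193b-3p, -2.68 ± 0.35 for miR-365-3p and -0.80 ± 0.43 for miR-193a-3p, against a median of 0.06 over all 471. With upper quartile factors, which put that median at -0.37, the 3 values were -3.24, -3.15 and -1.24. The value of miR-193a-3p also moved with the days it was set against, to -0.47 without day 17 and -1.60 against days 17 and 24 alone. Of the 3 members, miR-193b-3p and miR-365-3p were among the 135. Since the members were proposed from this contrast, nothing is read from that count. In the whole table, 16 miRNAs had a lower log2 change than miR-193b-3p, 17 a lower one than miR-365-3p and 140 a lower one than miR-193a-3p. In these bulk libraries, fewer cells that make a miRNA and less of it per cell cannot be told apart.

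Among the 5p arms of the same hairpins, miR-193a-5p was lower in calvaria, and it was the only 1 of the 4 with at least 10 counts in any calvaria library. The other 3 passed the filter on low counts through MC3T3 alone, which largely fixed their direction, so their values are given with no test. miR-193a-5p had 9.30, 4.94 and 7.44 RPM in calvaria, from 11, 10 and 10 counts, against 24.6, 37.4, 32.9, 51.0 and 39.4 RPM at days 0, 6, 10, 17 and 24. Its log2 change, calvaria over MC3T3, was -2.57 ± 0.33 (edgeR, adjusted p = 4.21e-05), and over all miRNAs 28.7% were called lower. It held at least 10 counts in every library, but its calvaria counts stood at or next to that minimum. Its 5 MC3T3 libraries alone would have passed it through the filter. miR-365-1-5p was the most different, with 0.85, 1.98 and 2.23 RPM in calvaria against 19.6, 38.4, 31.2, 28.7 and 19.7 RPM over the days. Its fitted log2 change was -4.12 ± 0.37 (SE).

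miR-193b-5p had 1.69, 1.48 and 0.74 RPM in calvaria against 8.43, 12.7, 13.5, 14.0 and 15.3 RPM over the days, a log2 change of -3.42 ± 0.38 (SE). miR-365-2-5p had 5.92, 3.46 and 1.49 RPM in calvaria against 14.1, 22.5, 16.4, 11.4 and 12.8 RPM over the days, a log2 change of -2.29 ± 0.42 (SE). No MC3T3 value of these 4 arms lay as low as a calvaria value. The 4 arms come from the hairpins of the members and are not independent of them.

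**Figure D2:**
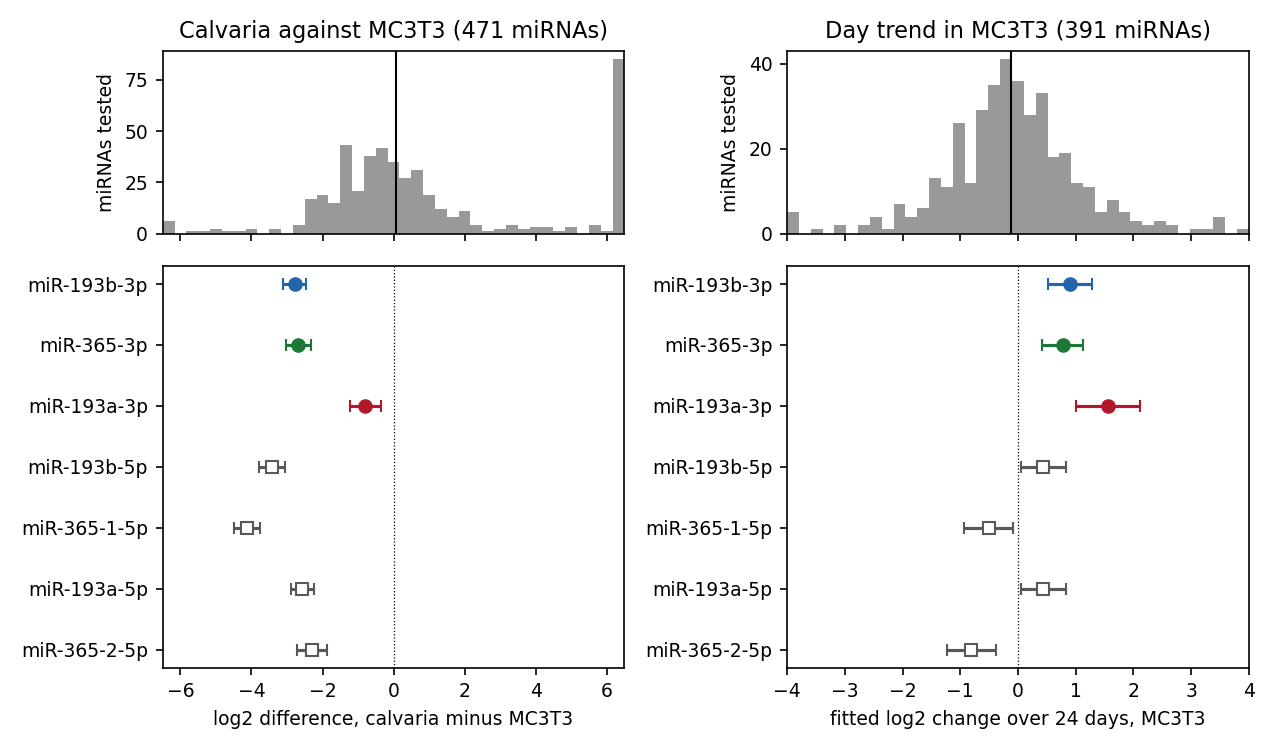
Fitted log2 changes, calvaria over MC3T3 and over 24 days in MC3T3, with the histogram of all miRNAs tested (471 and 391). Circles mark the 3p arms, open squares the 5p arms, bars ±1 SE, the vertical line the median of all, and the end bins also hold values beyond the axis. All 7 arms lie left of the median in the calvaria comparison, with miR-193a-3p nearest to it at -0.80.

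Shares within a library need no scaling between libraries. miR-193a-3p made up 17.3%, 14.0% and 17.9% of the sum of both miR-193 3p arms in calvaria, against 3.63%, 4.31%, 3.26%, 6.09% and 4.87% at days 0, 6, 10, 17 and 24. All 3 calvaria shares lay above all 5 MC3T3 shares, and the means were 16.4% ± 2.12 in calvaria and 4.43% ± 1.12 in MC3T3 (SD, n = 3 and 5). With counts summed, the share was 15.8% in calvaria (exact 95% binomial interval 11.8% to 20.6%, 285 counts) and 4.74% in MC3T3 (4.20% to 5.33%, 5548 counts). As the 2 arms share a seed, a larger part of the miRNA with that seed in calvaria was miR-193a-3p. This difference follows from the levels above and was not tested.

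The arms of the miR-193a hairpin stood in different proportions in the 2 materials. miR-193a-5p was 45.8%, 33.3% and 45.5% of both miR-193a arms in calvaria, from 24, 30 and 22 counts, against 81.2%, 73.8%, 74.5%, 64.2% and 68.4% at days 0, 6, 10, 17 and 24. The shares of the 2 materials did not overlap. In every MC3T3 library the 5p arm was the more abundant. In calvaria the 3p arm had the higher count, but by 13 to 11 and 12 to 10 counts in libraries 1 and 3, and the exact 95% binomial intervals, 25.6% to 67.2%, 17.3% to 52.8% and 24.4% to 67.8%, take in equal arms. Those of libraries 1 and 3 also overlap those of days 6, 10, 17 and 24, whose lower limits were 66.2%, 66.3%, 58.6% and 60.5%. The means were 41.5% ± 7.11 in calvaria and 72.4% ± 6.44 in MC3T3 (SD, n = 3 and 5). The miR-193b hairpin was unlike it, since its 5p arm was a small part of both arms in each material, 1.79% to 3.13% in calvaria and 3.09% to 5.27% in MC3T3. These shares were not tested either.

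The 5p arms give nearly the only reading of the 2 miR-365 hairpins apart. miR-365-2-5p, from chromosome 11, was 87.5%, 63.6% and 40% of both miR-365 5p arms in calvaria, on 8, 11 and 5 counts. In MC3T3 cells it was 41.9%, 37.0%, 34.5%, 28.5% and 39.3% at days 0, 6, 10, 17 and 24, on 89 to 192 counts. The calvaria libraries were widely spread and the lowest of them fell inside the MC3T3 range. Summed over libraries, the share was 66.7% in calvaria (exact 95% binomial interval 44.7% to 84.4%) and 35.8% in MC3T3 (32.3% to 39.4%), but the calvaria sum rests on 24 counts. For miR-193, miR-193a-5p, also from chromosome 11, was 76.9% to 90.9% of both 5p arms in calvaria and 70.8% to 78.5% in MC3T3, with overlap.

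**Figure D3:**
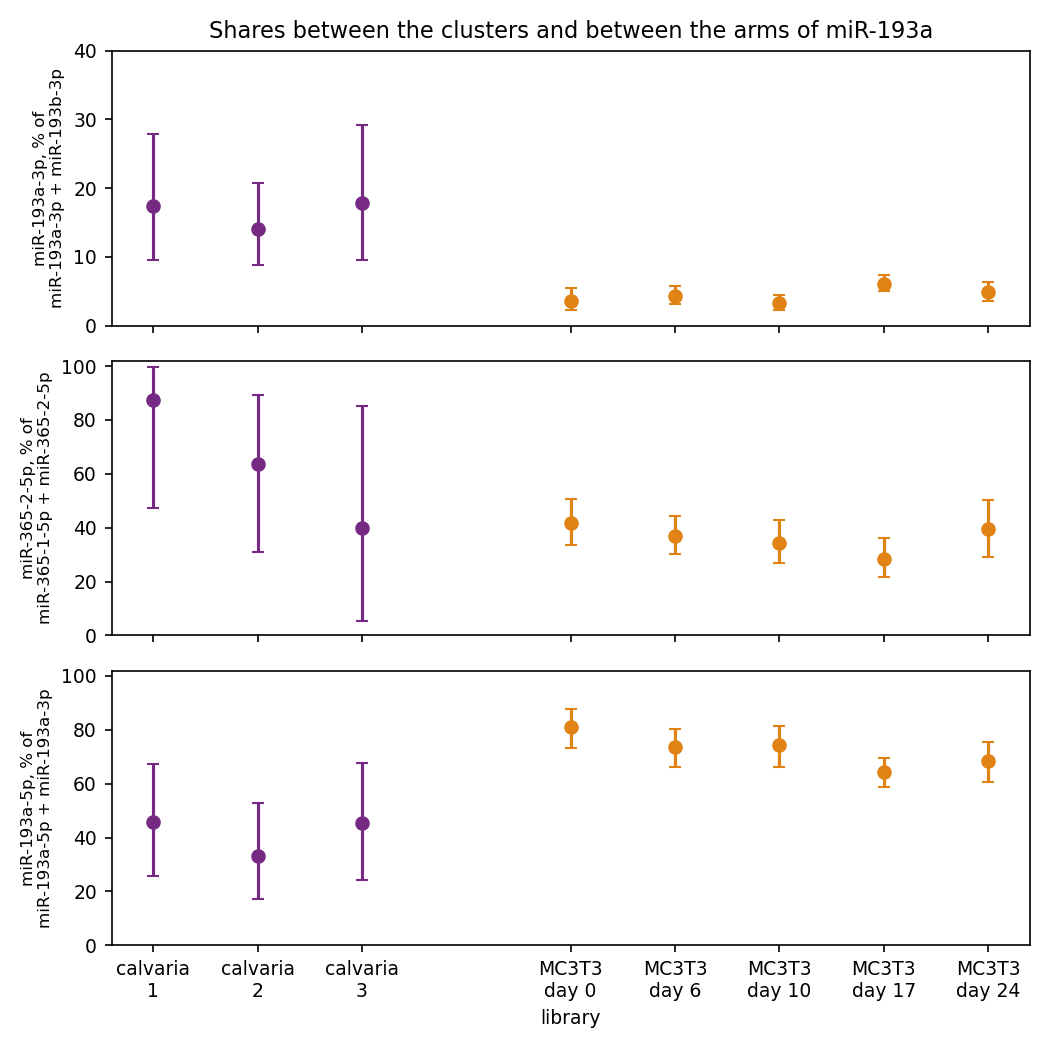
Shares within each library (percent, with exact 95% binomial intervals) of miR-193a-3p in both miR-193 3p arms, of miR-365-2-5p in both miR-365 5p arms, and of miR-193a-5p in both miR-193a arms. The calvaria points lie apart from those of MC3T3 in the first (14.0% to 17.9% against 3.26% to 6.09%) and in the last, where intervals overlap. In the middle one the points overlap.

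With both entries summed, the ratio of miR-365-3p to miR-193b-3p was 3.07, 1.99 and 1.69 in calvaria, against 2.27, 2.12, 2.26, 1.87 and 2.19 at days 0, 6, 10, 17 and 24. With 1 entry it was 1.53, 0.996 and 0.846 in calvaria, against 1.13, 1.06, 1.13, 0.934 and 1.095 at those days. On either count the MC3T3 values fell within the calvaria range. By contrast, miR-193b-3p was 4.58 to 6.15 times miR-193a-3p in calvaria and 15.3 to 29.7 times in MC3T3, without overlap. miR-365-3p, summed, made up 58.1% to 71.7% of the 3 members in calvaria and 63.7% to 68.7% in MC3T3. With 1 entry these shares were 41.0% to 55.9% in calvaria and 46.7% to 52.3% in MC3T3.

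The second comparison followed the MC3T3 cells over 24 days. With 1 pooled library per day, no pair of days could be compared with a test. In RPM, each member was lowest at day 0 and highest at day 17. At day 17 the ratio to day 0 was 2.89 for miR-193b-3p (exact 95% interval 2.63 to 3.18), 4.98 for miR-193a-3p (3.16 to 8.18) and 2.38 for miR-365-3p (2.24 to 2.54). At day 24 it was 2.35, 3.20 and 2.27 in the same order. With TMM-scaled values, which differ from RPM most at day 0, the ratios were smaller: 2.04, 3.52 and 1.69 at day 17 and 1.84, 2.50 and 1.78 at day 24. On that scale miR-365-3p was highest at day 24, at 854 TMM-scaled counts (CPM), against 479.5 CPM at day 0. The part of the day 0 library's composition in the lower values at day 0 was not tested. Nor were the parts of the osteogenic medium and of whatever veh marks, both found for the later days alone.

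From day 6 on, the members are set out step by step. TMM-scaled, miR-193b-3p was 1.32 times as high at day 10 as at day 6 (exact 95% interval 1.21 to 1.44) and 1.29 times as high at day 17 as at day 10 (1.19 to 1.39). miR-365-3p had ratios of 1.41 (1.33 to 1.499) and 1.06 (1.01 to 1.12) over the same steps. miR-193a-3p had 0.984 (0.610 to 1.58) and 2.48 (1.68 to 3.73), so most of its difference lay between days 10 and 17. At day 24 against day 17, TMM-scaled, miR-193b-3p was 0.901 times as high (0.833 to 0.976) and miR-193a-3p 0.711 times (0.499 to 1.001), while miR-365-3p was 1.06 times as high (1.0 to 1.12).

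A linear trend on day was fitted with edgeR's quasi-likelihood model over the 5 MC3T3 libraries. Of 391 miRNAs tested, 9 (2.3%) passed, 4 (1.02%) higher and 5 (1.28%) lower with day, and none of the 3 members did. At an unadjusted p under 0.05 there were 91. The members were proposed with these levels known, so nothing is read from whether they passed. The fitted log2 change over 24 days was 0.90 ± 0.38 (SE) for miR-193b-3p, 1.57 ± 0.56 for miR-193a-3p and 0.77 ± 0.36 for miR-365-3p, against a median of -0.12 over all 391. None of the 5p arms passed either. miR-193b-5p and miR-193a-5p each had a log2 change of 0.44 ± 0.39 (edgeR, adjusted p = 0.523), miR-365-1-5p of -0.51 ± 0.43 (0.504) and miR-365-2-5p of -0.81 ± 0.42 (0.301).

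**Figure D4:**
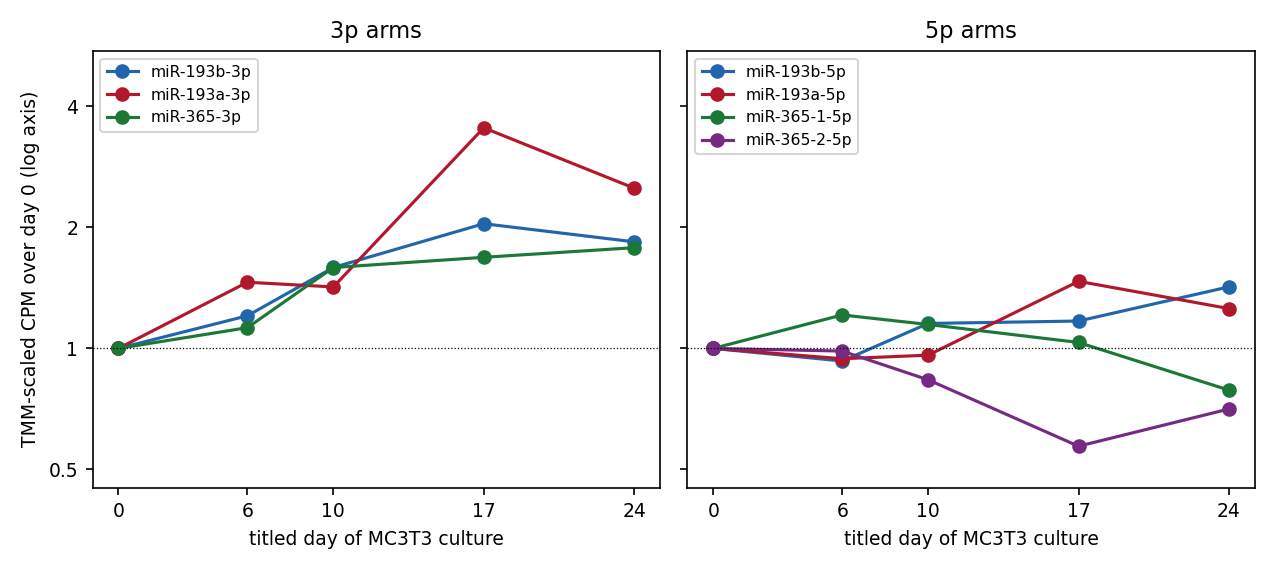
TMM-scaled level of each arm in MC3T3 cells relative to day 0, by day of culture, with the 3p arms and the 5p arms drawn apart. At day 24 the 3p arms lie at 1.84, 2.50 and 1.78 times day 0 for miR-193b-3p, miR-193a-3p and miR-365-3p.

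The fitted slopes of the 2 miR-365 5p arms were negative and that of miR-365-3p was positive, none of them past the threshold, and the difference between arms was not tested. Together, the 5p arms were 8.95%, 8.88%, 5.91%, 4.67% and 3.99% of all miR-365 arms at days 0, 6, 10, 17 and 24, lowest at day 24, and 4.04% to 5.10% in calvaria. The exact 95% binomial interval was 7.56% to 10.5% at day 0 and 3.22% to 4.89% at day 24. For miR-193a the 5p share was also highest at day 0, 81.2% (73.1% to 87.7%), and lowest at day 17, 64.2% (58.6% to 69.5%). Whether these differences exceed the spread between cultures cannot be told from 1 library per day.

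Other miRNAs were ranked by how closely their level followed each member (Pearson's r of log2(RPM + 1), over 358 miRNAs with a mean of at least 10 RPM). The points share depth and scaling, and over 8 libraries r takes in the gap between 2 materials, so it is a description. For miR-193b-3p the closest were miR-708-5p (r = 0.99), miR-297b-5p (0.99) and miR-34a-5p (0.98). For miR-365-3p they were miR-669o-5p, miR-423-5p and miR-31-3p (0.99, 0.99 and 0.98). For miR-193a-3p they were miR-125b-2-3p (0.91), miR-99a-5p (0.90) and miR-210-3p (0.89). Between the members, r was 0.98 for miR-193b-3p with miR-365-3p, 0.61 for miR-193b-3p with miR-193a-3p and 0.57 for miR-193a-3p with miR-365-3p.

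Over the 5 MC3T3 libraries alone, 276 miRNAs were ranked in the same way. Those closest to miR-193a-3p were miR-193a-5p, from its own hairpin (r = 0.99), miR-29c-3p (0.99) and miR-143-3p (0.98). The closest to miR-193b-3p were miR-191-5p, miR-378a-5p and miR-708-5p (0.998, 0.994 and 0.993). Those closest to miR-365-3p were miR-378c, miR-9-5p and miR-23a-3p (0.999, 0.998 and 0.997). All 5 points share the day 0 library and rest on 1 pool a day, so these values too are a description.

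Because the miR-193b and miR-365 cluster is known from brown fat, 20 other miRNAs with a reported part in that tissue were read from the same fits. Members of both lists lay on either side of 0. Of 12 reported to promote brown adipocyte differentiation, 11 were tested, and their median log2 change was -0.06, against 0.06 over all miRNAs. Of these 11, 3 were higher in calvaria, 3 lower and 5 did not pass, against 35.5% higher and 28.7% lower over all miRNAs. The split turned with the scaling: 5 higher and 2 lower with DESeq2 size factors (median 0.11), 3 and 2 with library totals (0.14), and 2 and 6 with upper quartile factors (-0.50). Higher were miR-203-3p (log2 change 4.53 ± 0.64), miR-30b-5p (1.60 ± 0.27) and miR-455-3p (1.26 ± 0.37), the last of which is also a cartilage miRNA. miR-203-3p reached 10 counts in 3 calvaria libraries but only 1 MC3T3 library, so its direction was largely fixed. Lower were miR-32-5p (-1.12 ± 0.26), miR-328-3p (-0.71 ± 0.25) and miR-196a-5p, which in mouse acts on Hoxc8. miR-196a-5p had 0, 0 and 2 counts in calvaria and passed the filter through MC3T3 alone, where it had 1316 counts in all, so its direction was largely fixed. Without miR-196a-5p, 3 were higher and 2 lower of 10 tested, and these 3 still hold miR-203-3p, whose direction was largely fixed too. Scaled to the library totals, the ratio of miR-196a-5p in calvaria to MC3T3 was 0.00567 (exact 95% interval 0.000686 to 0.0205). The call of miR-455-3p was lost with upper quartile factors (adjusted p = 0.0616), and that of miR-328-3p with DESeq2 size factors (0.0755) and library totals (0.126), all in edgeR.

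Of 8 miRNAs reported to restrain that fate, all tested, 1 was higher in calvaria, 3 were lower and 4 did not pass, against 35.5% higher and 28.7% lower over all miRNAs, and the median was -0.58. With upper quartile factors 1 was higher and 5 were lower (median -1.02), and with DESeq2 size factors or library totals 1 and 2 (-0.40 and -0.24). The higher one was miR-133a-3p (2.99 ± 0.38), a muscle miRNA that represses Prdm16. The lower ones were miR-34a-5p (-2.44 ± 0.25), miR-125b-5p (-1.28 ± 0.21) and miR-27b-3p (-0.65 ± 0.25), whose call was lost with DESeq2 size factors (edgeR, adjusted p = 0.103) and library totals (0.198). Over the days, miR-196a-5p fell by 2.77 on the log2 scale (SE 0.37, edgeR, adjusted p = 0.0341). It was the only one of the 18 tested to pass, against 9 of 391 (2.3%) over all miRNAs, so nothing is read from that count. Its call was lost with library totals (adjusted p = 0.0886), with limma (0.071) and without day 6 (0.0784), day 17 (0.102) or day 24 (0.0602).

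Markers of other cell types also differed between the 2 materials of the calvaria comparison. Where a marker had at least 10 counts in calvaria libraries alone, it passed the filter through them and its direction was largely fixed. Such markers are left out of the counts of calls below. The 35.5% called higher and 28.7% called lower over all miRNAs still hold miRNAs that passed through either material alone. These shares and those counts are therefore not on the same set. The endothelial pair miR-126-3p and miR-126-5p summed to 9028 to 20323 RPM in calvaria and 6.2 to 19.0 RPM in MC3T3. Of the pair, miR-126-3p was higher and miR-126-5p passed through calvaria alone. The 6 cartilage miRNAs, led by miR-140-3p, summed to 61269 to 111668 RPM in calvaria and 18218 to 28775 RPM in MC3T3, with 4 of 4 higher. The other 2, miR-675-5p and miR-675-3p, were listed at 0 in MC3T3 and passed through calvaria alone. The 7 blood cell miRNAs summed to 307.7 to 454.1 RPM in calvaria and 38.9 to 110.6 RPM in MC3T3. Of these, 5 passed through calvaria alone, miR-150-5p was higher and miR-486-5p was lower. miR-150-5p reached 10 counts in only 1 MC3T3 library (mean 2.07 RPM over MC3T3), so its direction was largely fixed as well. The call of miR-486-5p was lost with DESeq2 size factors (edgeR, adjusted p = 0.058) and library totals (0.134).

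The 6 striated muscle miRNAs summed to 283.3 to 642.4 RPM in calvaria and 212.6 to 574.4 RPM in MC3T3, with overlap. Of the 4 tested, miR-133a-3p and miR-1a-3p were higher, miR-206-3p did not pass, and miR-499-5p, which did not pass either, was tested through MC3T3 alone. The muscle marker miR-208b-3p was at 0 in both. The 4 nervous system miRNAs summed to 602.7 to 685.1 RPM in calvaria and 328.9 to 460.3 RPM in MC3T3, with miR-124-3p at 0 in MC3T3. Of its 2 tested miRNAs neither passed, but miR-9-5p did with DESeq2 size factors (edgeR, adjusted p = 0.0456) and miR-128-3p with library totals (0.0198), both higher. The 6 epithelial miRNAs summed to 17.3 to 29.6 RPM in calvaria and 2.2 to 5.5 RPM in MC3T3, with miR-429-3p at 0 in MC3T3, and miR-200b-3p, the one tested, passed through calvaria alone. The 5 mesenchymal miRNAs, led by miR-143-3p, were at 131924 to 145904 RPM in calvaria and 130003 to 187906 RPM in MC3T3. Of these, miR-199a-3p was higher, miR-143-3p and miR-145a-5p were lower and 2 did not pass. For these and for the muscle miRNAs, the shares over all miRNAs were 35.5% higher and 28.7% lower. The call of miR-199a-3p was lost with upper quartile factors (edgeR, adjusted p = 0.756). The part of these other cells in the lower miR-193b-3p and miR-365-3p levels of calvaria was not tested.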

How the data were processed

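Per the labels' protocols, libraries of 3 calvaria and 5 MC3T3 samples were prepared with the NEBNext kit for small RNA. The raw table deposited by the authors holds expected counts (estimated, not all whole) per mature arm and precursor, with 1418 entries. The second table deposited by the authors holds RPM, equal to the raw value over the library total within 0.013 RPM. The submitters' processing notes name cutadapt 0.9.5, Bowtie 0.12.7 and mm10. No source used here names the quantifier or the miRBase release.

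Each column was mapped to a sample by its name. MC3T3 column names carry a day 3 lower than the titles do; titles were followed, and the slope is the same either way. Entries were summed per mature miRNA and rounded to whole numbers for the fits. Both fits used edgeR 4.0.16 (R 4.3.3) quasi-likelihood tests, TMM factors, at least 10 counts in at least 3 of 8 libraries (calvaria) or 2 of 5 (days), and Benjamini-Hochberg adjustment over all miRNAs tested, threshold 0.05. The day trend has 3 residual degrees of freedom and is given as slope times 24 days. Intervals are exact Poisson, or exact (Clopper-Pearson) binomial, at 95%. Both fits were tested on simulated data.

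The members, lists and tests were chosen with earlier results of these data known. Named are the members, the other arms of their hairpins, the 3 most alike miRNAs per member over 8 and over 5 libraries, and listed miRNAs past the threshold. Alternatives used other scaling factors, tests, filters and day codes, fewer libraries and unsummed entries. Of the 1281 names, 1029 matched the RefSeq mature table; hairpin positions are RefSeq's and overlapping genes GENCODE M21's.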

Additional observations from a re-analysis of the deposited data

How the results depend on the processing

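The alternatives were other scaling factors, DESeq2, limma, other filters, unsummed entries, fewer libraries and another day code. No direction of a member or of a 5p arm reversed in those that gave it a value. Nothing is read from that for the members, which were proposed with these levels known. In the calvaria comparison the filter largely fixed the direction of miR-193b-5p, miR-365-1-5p and miR-365-2-5p. These arms gave no value there against days 17 and 24 or at a minimum of 100 counts. No paired analysis was possible because the calvaria and MC3T3 libraries share no source and each MC3T3 day is 1 library. Upper quartile factors gave log2 changes, calvaria over MC3T3, of -3.24 for miR-193b-3p, -1.24 for miR-193a-3p and -3.15 for miR-365-3p. They moved the median of all miRNAs from 0.06 to -0.37, and the calls to 142 higher and 192 lower; with DESeq2 size factors (median 0.23) these were 184 and 116, and with library totals (0.25) 173 and 106. Against days 17 and 24 alone, the changes were -3.31, -1.60 and -3.14. Over 17 alternatives the log2 change of miR-193a-3p ranged from -1.60, against days 17 and 24, to -0.43 with limma. Whether its adjusted p was under 0.05 turned on the setting. Since the members were proposed from this contrast, nothing is read from that. Leaving out 1 library, the changes ranged from -2.90 to -2.49 for miR-193b-3p, -0.97 to -0.47 for miR-193a-3p (without day 17) and -2.82 to -2.27 for miR-365-3p (without calvaria library 3). The calls then ranged from 77 to 179 higher and 86 to 145 lower. Without calvaria libraries 1, 2 or 3 they were 80, 77 and 81 higher and 87, 86 and 92 lower, with 386 to 388 miRNAs tested. A minimum of 100 counts left 81 higher and 75 lower of 258 tested; miR-193a-3p gave no value there. For the day trend, leaving out 1 day gave 0.67 to 1.44 for miR-193b-3p, 1.24 to 2.44 for miR-193a-3p and 0.59 to 1.09 for miR-365-3p. The highest value of each came without day 24. Calls ranged from 0 to 27 higher and 0 to 30 lower, the most without day 0; without day 6, 17 or 24 there were 0 in edgeR, with 80, 52 and 80 at an unadjusted p under 0.05. Day trend calls were 0 higher and 0 lower with library totals (edgeR, 63 at an unadjusted p under 0.05) and with limma (71), 19 and 14 with DESeq2's Wald test, and 7 and 10 with no filter. They were 0 and 1 at a minimum of 100 counts (54 at an unadjusted p under 0.05), 6 and 8 with unsummed entries, and 39 and 49 on log2(day + 1). None of the 3 members passed in any of these, and nothing is read from that. With TMM-scaled values, day 17 and day 24 over day 0 were 2.04 and 1.84 for miR-193b-3p and 1.69 and 1.78 for miR-365-3p, and miR-193a-3p in calvaria over MC3T3 was 0.575. Chosen after seeing the data, 1 entry of miR-365-3p in place of both put its mean ratio to miR-193b-3p at 1.125 in calvaria and 1.07 in MC3T3, against 2.25 and 2.14 with the sum. The causes of the other shifts were not tested. Depth limits miR-193a-3p and the 5p arms in calvaria most, at 1 to 20 counts per library.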
